A study of Mus musculus with 31 samples.

Results

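The comparison described here is the response of cultured inflammatory mouse Th17 cells to the cytokine TGF-β1 given alone. It was made up of the 3 libraries labelled TGF and the 3 libraries labelled Ctrl of the in vitro table, chosen by their column labels and by no measured value, which is 6 of the 31 libraries of the series and 6 of the 12 of the in vitro experiment. All genes were followed: 31053 symbols were listed and 10332 had enough counts to be tested. Both groups were WT cells of C57/B6 mice, from spleen and dLN as the labels put it, that had been turned into inflammatory Th17 cells in culture, and the labels name no transgene or deletion for them. One group received TGF-β1 for 2 days and the other, the control, did not. After that 2000 live Th17 cells per library were sorted, and their polyadenylated RNA was amplified and sequenced. The labels do not give the dose of TGF-β1, the cytokines present in both cultures, the age of the mice, or whether the 3 libraries of a group came from separate cultures or animals, so p-values measure only the spread between these libraries, which may be technical. The remaining 6 in vitro libraries, which received the synthetic glucocorticoid dexamethasone (Dex) with or without TGF-β1, entered the same fit to estimate the spread.

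TGF-β1 is a secreted dimer that is made as a latent precursor, cleaved by the protease furin and released from its latency proteins. The active cytokine joins the receptor kinases Tgfbr2 and Tgfbr1, which phosphorylate Smad2 and Smad3. These bind Smad4, enter the nucleus and act with other transcription factors on target genes, while Smad7, Ski, Skil, Pmepa1 and Ldlrad4 hold the signal back. In CD4 T cells TGF-β is known for supporting Th17, Treg and Th9 programs, depending on the cytokines around it, and for restraining Th1 and Th2 programs. It is also known for raising Itgae, the integrin subunit CD103.

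The libraries held 2769203 to 3415506 counts with TGF-β1 and 2915353 to 3926168 in the controls. Levels are CPM, a count as a share of all counts of its library, scaled by library size and by TMM, edgeR's factor for composition, and a library at 0 could hide a level of up to 0.730 to 1.13 CPM, the value of 3 counts. The 10 T cell markers, among them Cd3e, Cd4 and Trac, summed to 2455 to 2495 CPM with TGF-β1 and 2330 to 2448 CPM in the controls. In all 6 libraries 7 of 15 myeloid markers were at 0 (Lyz2, Csf1r, Itgam, Adgre1, C1qa, C1qc and Tyrobp), and the list summed to 44.5 to 51.2 CPM with TGF-β1 and 45.5 to 62.1 CPM in the controls. The B cell markers Ms4a1, Pax5, Ighd and Blk were at 0 throughout, in a list of 10 that summed to 83.8 to 89.9 CPM with TGF-β1 and 86.1 to 98.7 CPM in the controls. The 12 markers of dendritic cells and MHC class II summed to 1469 to 1513 CPM with TGF-β1 against 1001 to 1075 CPM in the controls, with Itgax, Clec9a, Cd209a and Ciita at 0 throughout. Of that list Ccr7, which T cells also express, was the 1 member that passed the test. Ccr7 alone made up 1007 ± 33.8 CPM (SD, n = 3) of the sum with TGF-β1 and 565 ± 18.1 CPM in the controls. The 11 NK and CD8 T cell markers, with Ncr1 and Klra8 at 0 throughout, summed to 11.0 to 14.2 CPM with TGF-β1 and 21.0 to 23.9 CPM in the controls. Neutrophil and mast cell markers, 11 in number, summed to 1.13 to 4.34 CPM with TGF-β1 and 0 to 2.19 CPM in the controls. The sort gave Th17 cells by its label, and the Th17 markers Rora, Il17a, Il17f, Il23r and Ccr6 were detected in every library.

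TGF-β1 changed 340 of the 10332 genes tested, or 3.29%, at a Benjamini-Hochberg adjusted p below 0.05 in edgeR's quasi-likelihood test. Of these 199 (1.93%) were higher and 141 (1.36%) lower with TGF-β1. The median log2 fold change was 0.79 among the higher genes and -0.66 among the lower ones, beside -0.00028 over all genes tested. Changes of at least 2-fold made up 76 of the higher genes (0.736% of all tested) and 43 of the lower (0.416%). In all 340 the 3 TGF-β1 libraries lay on 1 side of the 3 controls, an order found among all tested genes in 10.5% for higher and 10.4% for lower. The number of calls fell to 219 without TGF-β1 replicate 1, to 226 without control replicate 1 and to 219 without control replicate 3, and the lower genes to 78, 89 and 84, while the higher genes fell to 131 without control replicate 2. Scaling by library totals alone left 177 calls, 98 higher and 79 lower.

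**Figure D1:**
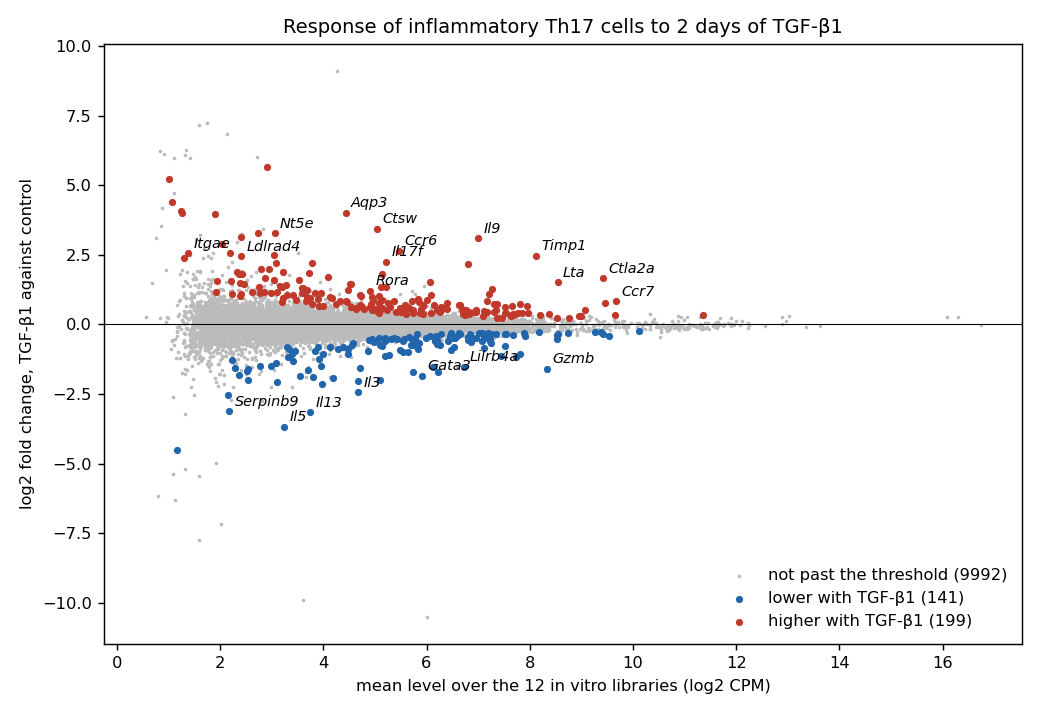
Each point is 1 of the 10332 genes tested, with its mean level over the 12 in vitro libraries on the x axis (log2 CPM) and its log2 fold change, TGF-β1 against control, on the y axis. The 199 genes in red and the 141 in blue passed the test, with Aqp3, Ctsw and Nt5e at the top of the labelled genes and Il5, Il13 and Serpinb9 at the bottom.

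In the list of ligands, latency proteins, receptors and Smads 17 of 26 members had enough counts to be tested, of which 4 rose and 0 fell (23.5% called, beside 3.29% of all genes tested), with a median log2 fold change of 0.21. The 4 were Tgfbr1, Tgfbr3, Smad3 and Furin. Tgfbr1 (chromosome 4, 47353222 to 47414931, GRCm38 by GENCODE M21, as are all gene positions here), the type I receptor kinase, was at 5.29, 6.07 and 4.24 CPM with TGF-β1 and at 2.80, 2.45 and 1.70 CPM in the controls. Its groups did not overlap, but it lay close to the floor of detection and only just passed (log2 fold change 1.18 ± 0.29 SE, adjusted p = 0.0481). Smad3 (chromosome 9, 63646767 to 63757994), a Smad that binds DNA, was at 26.8, 25.4 and 27.2 CPM with TGF-β1 and at 11.9, 18.0 and 17.8 CPM in the controls, where replicate 1 was the lowest. Its log2 fold change was 0.72 ± 0.17 SE (adjusted p = 0.0359).

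The co-receptor Tgfbr3, or betaglycan, which presents the ligand to Tgfbr2, was at 34.4, 29.5 and 39.0 CPM with TGF-β1 against 21.3, 19.6 and 20.7 CPM, a log2 fold change of 0.74 ± 0.12 SE (adjusted p = 0.00447). Furin was at 225, 170 and 222 CPM with TGF-β1 and at 151, 89.9 and 132 CPM in the controls (0.73 ± 0.18 SE, adjusted p = 0.0421), and replicate 2 was the lowest library of both groups. Tgfbr1 and Smad3 did not pass when any 1 of the 6 libraries was left out (adjusted p up to 0.211 and 0.110), nor did Furin without TGF-β1 replicate 1 or 3 or control replicate 2 or 3 (up to 0.141), and none of these 3 passed when scaled by library totals alone. Tgfbr3 passed in all of these fits. The partner kinase Tgfbr2 stood at 18.7 ± 1.19 CPM (SD, n = 3) with TGF-β1 and 13.8 ± 3.24 CPM in the controls (0.43 ± 0.20 SE, adjusted p = 0.333). The cytokine's own gene Tgfb1 stood at 7.46 ± 0.908 against 7.17 ± 1.89 CPM, and Smad2 and Smad4 had log2 fold changes of 0.18 ± 0.15 and -0.29 ± 0.39, all with overlapping libraries and adjusted p between 0.641 and 0.960.

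Of the feedback regulators, 16 of 20 had enough counts to be tested, 4 rose and 0 fell (25% called, beside 3.29% of all genes tested), with a median of 0.28. The largest change was that of Ldlrad4 (chromosome 18, 67933257 to 68268630), a membrane protein that keeps Smad2 and Smad3 from the receptor, which was at 5.29, 8.96 and 6.05 CPM with TGF-β1 and at 1.40, 1.36 and 0.974 CPM in the controls. All 3 TGF-β1 libraries exceeded every control, and its log2 fold change was 2.44 ± 0.29 SE (adjusted p = 0.000425). Exons of Ldlrad4 share 2798 bases with Fam210a on the opposite strand, and the library protocol keeps no strand. Fam210a had a log2 fold change of 0.36 ± 0.25 SE (adjusted p = 0.555). Skil, a co-repressor of Smads, was at 21.9, 23.1 and 22.7 CPM with TGF-β1 and 10.1, 10.6 and 12.9 CPM in the controls (1.00 ± 0.15 SE, adjusted p = 0.00183).

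The transcriptional repressors Zeb1 and Tgif1 rose as well. Zeb1 was at 24.9, 25.4 and 23.9 CPM with TGF-β1 against 14.0, 12.5 and 14.6 CPM in the controls (0.85 ± 0.16 SE, adjusted p = 0.00853). Tgif1 was at 32.1, 26.9 and 30.9 CPM against 21.0, 20.7 and 16.8 CPM (0.62 ± 0.13 SE, adjusted p = 0.0211). Neither passed on library totals alone, and Tgif1 also missed the threshold without TGF-β1 replicate 1 or 3 or control replicate 3 (adjusted p up to 0.102). The best known feedback genes were low and did not pass: Smad7 was at 5.29, 6.65 and 5.45 CPM with TGF-β1 and at 5.60, 3.27 and 4.38 CPM in the controls (0.41 ± 0.36 SE, adjusted p = 0.665). Pmepa1 was at 6.42, 5.78 and 4.84 CPM against 3.50, 3.27 and 3.65 CPM. Its groups did not overlap, and its log2 fold change of 0.70 ± 0.23 SE did not pass (adjusted p = 0.234). Ski had 0.42 ± 0.17 SE (adjusted p = 0.365).

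**Figure D2:**
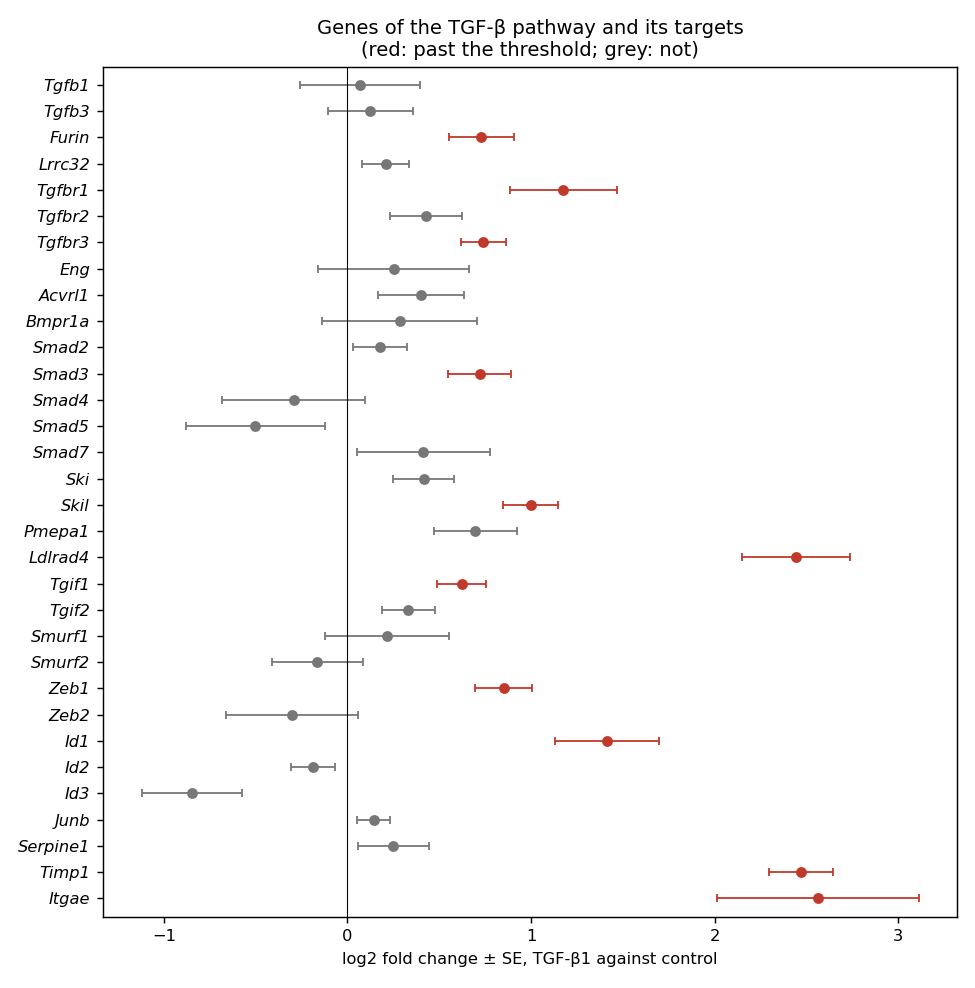
Log2 fold change, TGF-β1 against control (x axis, bars: SE of the edgeR fit over 3 libraries a group), of tested genes of the TGF-β pathway, its feedback regulators and its targets (y axis). Furin, Tgfbr1, Tgfbr3, Smad3, Skil, Ldlrad4, Tgif1, Zeb1, Id1, Timp1 and Itgae passed the test (red), all of them higher, and the others did not (grey).

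Among 20 genes known as targets of TGF-β in many cell types, 13 had enough counts to be tested, 3 rose and 0 fell (median 0.14). The share called was 23.1%, beside 3.29% of all genes tested. Timp1 (chromosome X, 20870166 to 20874735), a secreted inhibitor of matrix metalloproteinases, was at 615, 456 and 500 CPM with TGF-β1 and at 94.8, 103 and 85.7 CPM in the controls. Its groups lay far apart, with a log2 fold change of 2.47 ± 0.18 SE (adjusted p = 9.19e-06). Itgae (chromosome 11, 73090583 to 73147446), the CD103 chain that binds E-cadherin together with Itgb7, was near the floor in the controls, at 0.700, 0.818 and 0.974 CPM, and at 3.78, 4.91 and 6.66 CPM with TGF-β1. Its log2 fold change of 2.56 ± 0.55 SE passed (adjusted p = 0.0204) but did not when any 1 of the 6 libraries was left out (up to 0.137).

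Id1, an inhibitor of E proteins, was at 20.4, 14.5 and 13.0 CPM with TGF-β1 against 6.30, 4.63 and 6.82 CPM (1.41 ± 0.28 SE, adjusted p = 0.0148), and missed the threshold without TGF-β1 replicate 1 or control replicate 2 (up to 0.0768). Its relatives Id2 and Id3, which are also known to respond to TGF-β, had log2 fold changes of -0.19 and -0.85 that did not pass, the latter with an adjusted p of 0.143. Of 23 genes of tissue-resident T cells, which share members with the targets, 12 had enough counts (50% called in either direction, beside 3.29% of all genes tested). Of these 5 rose, and the median of the list was 0.11. Besides Itgae these included Cd101, an inhibitory surface protein, at 13.8 ± 0.875 CPM (SD, n = 3) with TGF-β1 and 5.53 ± 0.666 CPM in the controls (1.32 ± 0.18 SE, adjusted p = 0.000859), and the chemokine receptor Ccr7.

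Cd69, which keeps T cells in tissue by blocking S1pr1, and Rgs1, which dampens chemokine receptors, rose by less (log2 fold changes of 0.63 ± 0.13 and 0.41 ± 0.08 SE, adjusted p = 0.0206 and 0.0114). Cd69 did not pass without TGF-β1 replicate 2 or 3 or control replicate 3 (up to 0.105), or on library totals alone. Ccr7 guides T cells to lymph nodes and is a gene that resident cells lose. It was at 970, 1037 and 1012 CPM with TGF-β1 and 566, 546 and 582 CPM in the controls, a log2 fold change of 0.83 ± 0.05 SE (adjusted p = 9.23e-07) with wide separation of the groups.

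In the list of Th17 identity genes 15 of 20 members had enough counts, of which 5 rose and 1 fell (40% called, beside 3.29% of all genes tested). The median log2 fold change was 0.80, beside -0.00028 over all genes. Ccr6 (chromosome 17, 8236043 to 8257141), the receptor for Ccl20 that marks Th17 cells, was at 61.6, 46.0 and 62.3 CPM with TGF-β1 and at 9.45, 10.6 and 7.06 CPM in the controls. The lowest TGF-β1 library was far above the highest control, with a log2 fold change of 2.65 ± 0.22 SE (adjusted p = 1.81e-05). Rora (chromosome 9, 68653786 to 69388246), a nuclear receptor that acts in the transcription program of the lineage, was at 49.9, 42.5 and 43.9 CPM against 19.2, 19.9 and 19.5 CPM, again without overlap (1.21 ± 0.14 SE, adjusted p = 0.000324).

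The interleukin 17 genes varied between replicates in both groups. Il17f (chromosome 1, 20777146 to 20790617) was at 70.6, 32.7 and 65.1 CPM with TGF-β1 and at 17.8, 4.09 and 13.9 CPM in the controls, and Il17a, its neighbour (chromosome 1, 20730905 to 20734496), at 63.5, 16.5 and 58.4 CPM against 21.7, 12.5 and 23.4 CPM. Replicate 2 was the lowest library of its group in all 4 cases, and for Il17a the TGF-β1 replicate 2 fell within the range of the controls. Il17f passed (2.25 ± 0.48 SE, adjusted p = 0.0263), though not without TGF-β1 replicate 1 or 3 or control replicate 2 or 3 (up to 0.0900) or on library totals alone. Il17a did not pass (1.25 ± 0.49 SE, adjusted p = 0.260) and did so only without TGF-β1 replicate 2 (0.0390).

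Interleukin 22, another Th17 cytokine, had too few counts to be tested, with 27, 9 and 14 counts in the TGF-β1 libraries and 1, 2 and 11 in the controls. Il23r, the receptor subunit for interleukin 23, stood at 2.46 ± 0.383 CPM (SD, n = 3) with TGF-β1 and 3.11 ± 0.177 CPM in the controls (-0.34 ± 0.38 SE, adjusted p = 0.751). Stat3, the signal transducer of interleukins 6 and 23, and Irf4, a transcription factor needed early in Th17 differentiation, rose by 0.42 ± 0.06 and 0.33 ± 0.07 SE on the log2 scale (adjusted p = 0.00168 and 0.0129), and neither passed on library totals alone. Irf4 also missed without control replicate 1 (0.0506). Their partner Batf, a transcription factor of the AP-1 family, was lower at 145, 133 and 170 CPM against 266, 243 and 256 CPM in the controls (-0.77 ± 0.10 SE, adjusted p = 0.000849). Batf was the 1 member of the Th17 list that fell.

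Of 16 genes linked to homeostatic Th17 cells, 11 had enough counts, 3 rose and 1 fell (36.4% called, beside 3.29% of all genes tested, median 0.07). The largest rise was that of Il9 (chromosome 13, 56479277 to 56482246), the cytokine of Th9 cells that Th17 cells also make, at 377, 171 and 353 CPM with TGF-β1 and 46.5, 17.4 and 41.9 CPM in the controls. Replicate 2 was again the lowest of both groups, yet the lowest TGF-β1 library was well above the highest control (3.10 ± 0.38 SE, adjusted p = 0.00116). Maf, the transcription factor that drives Il10, was low and rose from 1.05, 1.36 and 1.70 CPM to 3.78, 4.63 and 4.24 CPM (1.57 ± 0.32 SE, adjusted p = 0.0149). The Maf call was lost without TGF-β1 replicate 2 or 3 or control replicate 1 or 2 (up to 0.0659) and in DESeq2, and 440 bases of its exons overlap Gm15655 on the other strand, which lay at 1.15 CPM in both groups.

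Izumo1r, the folate receptor 4 of Treg and anergic T cells, rose from 190 ± 12.4 to 300 ± 9.89 CPM (SD, n = 3, log2 fold change 0.66 ± 0.06 SE, adjusted p = 7.56e-05). Il10 could not be tested, at 3, 1 and 2 counts with TGF-β1 and 0, 2 and 1 in the controls. Cd5l, a lipid regulator associated with homeostatic Th17 cells, was also below the filter, with 7, 7 and 9 counts with TGF-β1 against 1, 0 and 0, a ratio of summed counts of 26.0 with a 95% counting interval of 4.22 to 1071 that covers counting error only. In the edgeR fit without a low-count filter its adjusted p was 0.0168.

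Among 24 genes of inflammatory Th17 cells, 20 had enough counts, 1 rose and 2 fell (15% called, beside 3.29% of all genes tested), and the median was -0.13. Il3 (chromosome 11, 54265303 to 54267277), a growth factor for myeloid progenitors and mast cells, was at 16.6, 11.9 and 10.9 CPM with TGF-β1 and at 96.2, 49.3 and 66.5 CPM in the controls. The groups did not overlap (-2.43 ± 0.37 SE, adjusted p = 0.00252). Csf2, which encodes GM-CSF and lies beside Il3 in the genome, had 0 counts in the 3 TGF-β1 libraries and 2, 0 and 2 in the controls, too few to test. Il18r1, a chain of the receptor for interleukin 18, was the member that rose, at 20.4, 9.83 and 14.2 CPM with TGF-β1 and 2.80, 2.18 and 2.68 CPM in the controls (2.51 ± 0.29 SE, adjusted p = 0.000377).

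Il18rap, the other chain of that receptor, was below the filter with 11, 5 and 7 counts against 2, 0 and 1, a ratio of 8.66 (counting interval 2.62 to 45.1), and did not pass without the filter (edgeR adjusted p = 0.145). The Th1 regulator Tbx21 was at 7.56, 24.3 and 14.2 CPM with TGF-β1 and 12.6, 22.9 and 16.8 CPM in the controls (-0.17 ± 0.46 SE, adjusted p = 0.920), and Ifng, at 0, 4.34 and 4.24 against 10.8, 1.36 and 2.19 CPM, had an adjusted p of 0.820. Both groups overlapped for these 2 genes. Of 20 Th1 genes 15 had enough counts, 1 rose (Il18r1) and 2 fell (Gzmb and Il12rb2), with a median of -0.17. The share called was 20%, beside 3.29% of all genes tested. Il12rb2, the signalling chain of the interleukin 12 receptor, was at 74.0, 118 and 91.1 CPM against 150, 195 and 161 CPM (-0.83 ± 0.18 SE, adjusted p = 0.0246). That call was lost without TGF-β1 replicate 1 or 3 or control replicate 2 or 3 (up to 0.109), and 1519 bases of its exons overlap Serbp1 on the other strand (log2 fold change -0.14, adjusted p = 0.371).

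**Figure D3:**
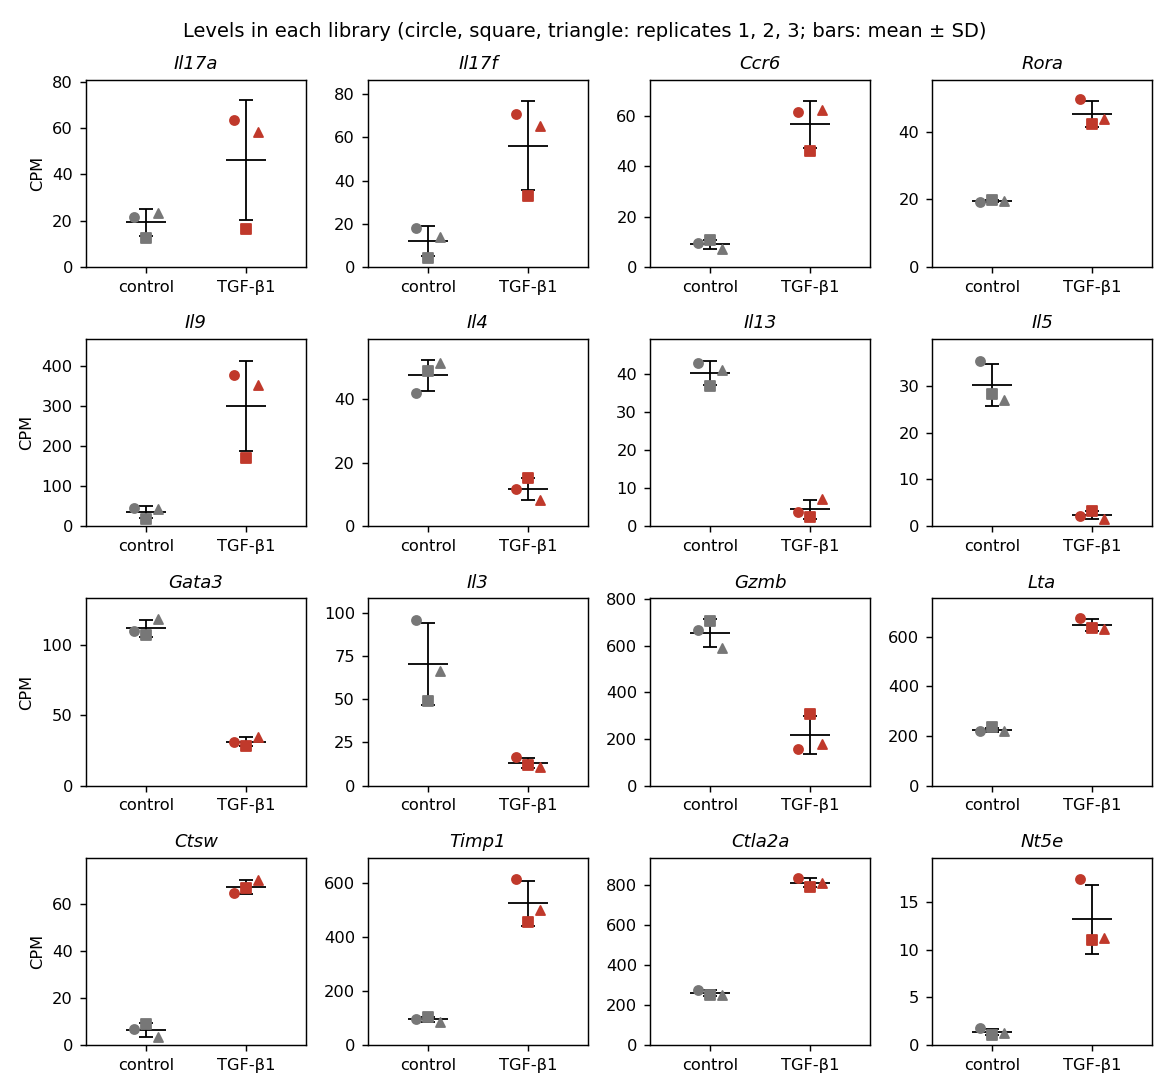
Level in CPM (y axis, from 0) of 16 genes in the 3 control (grey) and 3 TGF-β1 (red) libraries, with circles, squares and triangles for replicates 1, 2 and 3 and bars for mean ± SD. Il17a is the 1 gene shown whose groups overlap, and replicate 2 is the lowest of both groups for Il17a, Il17f, Il9, Il13, Gata3 and Nt5e.

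The Th2 cytokine genes Il4, Il5 and Il13 and the regulator Gata3 fell. In the list of Th2 and Th9 genes 11 of 17 members had enough counts, of which 5 fell (Gata3, Il4, Il5, Il13 and Ccr8) and 2 rose (Il9 and Irf8), with a median of -0.34. These 7 of 11 are 63.6% of the tested members beside 3.29% of all genes. Il5 (chromosome 11, 53720794 to 53725106), the growth factor of eosinophils, was at 2.27, 3.18 and 1.51 CPM with TGF-β1 and at 35.3, 28.3 and 27.0 CPM in the controls, a log2 fold change of -3.67 ± 0.33 SE (adjusted p = 3.28e-05). Il13 (chromosome 11, 53631324 to 53634702) was at 3.78, 2.31 and 7.26 CPM against 43.0, 36.8 and 41.1 CPM (-3.16 ± 0.32 SE, adjusted p = 0.000127). For both genes every TGF-β1 library was far below every control.

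Il4 (chromosome 11, 53602982 to 53618669), the cytokine that drives Th2 cells, was at 11.7, 15.03 and 8.17 CPM with TGF-β1 and at 42.0, 48.8 and 51.4 CPM in the controls (-2.02 ± 0.26 SE, adjusted p = 0.000735). Gata3 (chromosome 2, 9857078 to 9890034), the transcription factor that defines Th2 cells, was at 31.0, 28.0 and 34.5 CPM against 110, 107 and 119 CPM (-1.85 ± 0.24 SE, adjusted p = 0.000735). Neither gene overlapped between groups, and the controls thus held RNA of Th2 genes that was lower with TGF-β1. In sorted bulk cells, fewer cells of a type and less RNA per cell cannot be told apart, here or for any gene below.

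Ccr8, a chemokine receptor of Th2 and Treg cells, was at 79.3, 88.2 and 76.9 CPM against 166, 114 and 150 CPM (-0.81 ± 0.13 SE, adjusted p = 0.00315). Irf8, a transcription factor needed for Th9 cells, rose to 254, 332 and 280 CPM from 165, 174 and 210 CPM (0.66 ± 0.12 SE, adjusted p = 0.00821). Il4, Il13 and Il5 lie next to each other with Rad50, a DNA repair gene that holds the locus control region of the Th2 cytokines. All 4 fell, Rad50 from 34.6 ± 2.31 to 20.8 ± 0.665 CPM (SD, n = 3, log2 fold change -0.74 ± 0.12 SE, adjusted p = 0.00423), so that no tested gene between 53602982 and 53725106 on chromosome 11 failed to fall. This was the longest of 27 runs of neighbouring tested genes that passed in the same direction.

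The 250 bases before the start of Il5 and Il13, the genes of that run with the largest falls, are shown because both hold the core of the site bound by GATA factors, AGATA on either strand, in capitals. They are RefSeq windows on GRCm38.p6, written 5′ to 3′ in the direction of the gene, for Il5 chr11:53720544-53720793 on the plus strand and for Il13 chr11:53634703-53634952 on the minus strand.
Il5: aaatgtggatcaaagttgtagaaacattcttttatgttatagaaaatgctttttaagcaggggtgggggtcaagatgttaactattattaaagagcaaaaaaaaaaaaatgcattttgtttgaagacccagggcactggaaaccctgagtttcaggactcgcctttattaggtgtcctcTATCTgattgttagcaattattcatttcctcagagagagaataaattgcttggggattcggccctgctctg
Il13: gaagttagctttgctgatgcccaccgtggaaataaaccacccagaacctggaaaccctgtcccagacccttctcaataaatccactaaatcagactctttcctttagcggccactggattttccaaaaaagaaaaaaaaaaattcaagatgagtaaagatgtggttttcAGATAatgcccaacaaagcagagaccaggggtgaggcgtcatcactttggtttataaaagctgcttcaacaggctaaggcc
The motif begins 71 bases before the start in Il5, as its complement TATCT, and 81 bases before it in Il13. It was not in either of the 2 Il4 windows. Over the first listed window of all 27025 RefSeq symbols 27% held it, as did 17% of the tested genes that had a window. The match is thus a description of these letters.

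Of 19 genes of cytotoxic granules 11 had enough counts, of which 4 fell and 1 rose (45.5% called, beside 3.29% of all genes tested), with a median of -0.94. Gzmb (chromosome 14, 56258838 to 56262260), the granule protease granzyme B, was at 159, 309 and 180 CPM with TGF-β1 and at 669, 707 and 590 CPM in the controls. Its highest TGF-β1 library, replicate 2, stayed below the lowest control (-1.59 ± 0.26 SE, adjusted p = 0.00609). Serpinb9, the inhibitor that protects cells from granzyme B, was at 0.378, 0.867 and 0.908 CPM against 5.60, 8.99 and 5.60 CPM (-3.13 ± 0.43 SE, adjusted p = 0.00112). With TGF-β1 Serpinb9 had 1, 3 and 3 counts, at or below the floor of detection, so the size of its fall is uncertain. Its neighbour Serpinb6b, another intracellular serpin, was at 28.0, 24.0 and 14.8 CPM against 70.0, 78.5 and 68.2 CPM (-1.71 ± 0.22 SE, adjusted p = 0.000682).

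Cst7, or cystatin F, which inhibits granule cathepsins, fell from 259 ± 15.7 to 119 ± 2.58 CPM (SD, n = 3, log2 fold change -1.12 ± 0.07 SE, adjusted p = 1.63e-06). Ctsw, which encodes cathepsin W and is typical of NK and CD8 T cells, went the other way, from 6.65, 8.99 and 3.16 CPM in the controls to 64.6, 67.1 and 70.5 CPM with TGF-β1 (3.45 ± 0.24 SE, adjusted p = 3.50e-06). Other members were lower in all 3 TGF-β1 libraries without passing, such as Gzma at 2.75 ± 0.126 against 8.85 ± 2.43 CPM (adjusted p = 0.220) and Fasl at 4.70 ± 1.21 against 9.09 ± 1.64 CPM (adjusted p = 0.106). The NK and CD8 T cell marker sum given above, which includes Gzma, was also lower with TGF-β1, and its part in these changes was not tested.

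The largest rise among genes whose mean log2 CPM was at least 4 was that of Aqp3 (chromosome 4, 41092722 to 41098183), a channel for water and glycerol. It was at 47.6, 29.5 and 39.6 CPM with TGF-β1 and at 3.50, 1.36 and 2.43 CPM in the controls, a log2 fold change of 4.01 ± 0.29 SE (adjusted p = 5.50e-06). Slc4a11, a membrane transporter of the bicarbonate transporter family, was at 88.8, 92.2 and 85.3 CPM against 25.9, 30.8 and 36.0 CPM (1.51 ± 0.12 SE, adjusted p = 1.24e-05). Both genes were clear of overlap. Acsbg1, which activates long-chain fatty acids, was at 21.8 ± 7.09 CPM (SD, n = 3) against 6.56 ± 0.793 CPM (1.71 ± 0.22 SE, adjusted p = 0.000682).

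The metalloprotease gene Adam19, the amyloid precursor relative Aplp2, the annexin gene Anxa3 and Epb41l2, of the membrane skeleton, had log2 fold changes between 1.36 and 1.45 with adjusted p of 0.00175 or less. Of the genes with the largest falls not yet described, Trat1, an adaptor that stabilises the T cell receptor complex, was at 12.5, 4.05 and 9.68 CPM with TGF-β1 and 28.3, 32.4 and 35.8 CPM in the controls (-1.92 ± 0.27 SE, adjusted p = 0.00121). Serpine2, a secreted protease inhibitor, stood at 13.6 ± 4.29 against 40.8 ± 6.48 CPM (SD, n = 3, -1.55 ± 0.33 SE, adjusted p = 0.0202). The Serpine2 call was lost without any TGF-β1 library or without control replicate 1 or 2 (up to 0.0882), and on library totals alone.

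Ndufa4, a subunit of the mitochondrial cytochrome c oxidase, was at 127, 142 and 141 CPM against 297, 350 and 286 CPM (-1.19 ± 0.10 SE, adjusted p = 1.81e-05). Dnajc15, a cochaperone of the inner mitochondrial membrane, and Mapre2, a microtubule end-binding protein, fell by 1.15 ± 0.20 and 1.10 ± 0.18 SE on the log2 scale (adjusted p = 0.00660 and 0.00355). Tg (chromosome 15, 66670753 to 66850721), which encodes thyroglobulin, the precursor of thyroid hormone, was at 146, 149 and 148 CPM with TGF-β1 and 293, 319 and 321 CPM in the controls (-1.08 ± 0.06 SE, adjusted p = 1.10e-06). Sla, a T cell adaptor gene that lies within Tg on the opposite strand, had a log2 fold change of 0.23 (adjusted p = 0.195).

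The paired genes Ctla2a and Ctla2b encode small inhibitors of cathepsin-like proteases that were first found in activated T cells. Ctla2a (chromosome 13, 60934155 to 60936625) was at 839, 790 and 812 CPM with TGF-β1 and at 275, 252 and 251 CPM in the controls, a tight separation (1.65 ± 0.08 SE, adjusted p = 1.83e-07). Ctla2b (chromosome 13, 60895350 to 60897447) was at 28.7, 53.2 and 37.2 CPM against 4.90, 18.8 and 9.49 CPM (1.82 ± 0.34 SE, adjusted p = 0.0105) and lost its call without control replicate 3 (0.0622) and in the fit without a low-count filter. The predicted gene Gm49391, which spans the pair and shares 343 and 1035 exon bases with Ctla2a and Ctla2b on the same strand, rose too (2.22 ± 0.39 SE, adjusted p = 0.00674). How the counting shared reads among the 3 genes was not given in the sources used here, so their separate values are uncertain.

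The 250 bases before the start of each gene of the pair are printed because the genes moved together and the windows are near copies. They are RefSeq windows on GRCm38.p6, 5′ to 3′ on the minus strand, for Ctla2a chr13:60936626-60936875 and for Ctla2b chr13:60897448-60897697. Capitals mark CAGACA, a box bound by Smad3 and Smad4, or its complement TGTCTG, and TGANTCA, the site of AP-1 factors, which is its own complement in form.
Ctla2a: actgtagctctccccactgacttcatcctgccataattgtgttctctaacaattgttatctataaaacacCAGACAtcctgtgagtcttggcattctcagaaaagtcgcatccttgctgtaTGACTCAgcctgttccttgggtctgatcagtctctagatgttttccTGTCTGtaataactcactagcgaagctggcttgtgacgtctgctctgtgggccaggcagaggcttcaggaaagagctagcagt
Ctla2b: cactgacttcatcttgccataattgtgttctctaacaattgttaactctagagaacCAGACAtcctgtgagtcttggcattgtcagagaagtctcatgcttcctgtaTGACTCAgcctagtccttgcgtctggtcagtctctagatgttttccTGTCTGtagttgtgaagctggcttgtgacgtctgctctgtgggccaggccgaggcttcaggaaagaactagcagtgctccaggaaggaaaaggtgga
Aligned to each other, 208 of 228 bases were identical (91.2%). The CAGACA box lies 180 and 83 bases before the start in Ctla2a and 194 and 97 bases before it in Ctla2b, and TGANTCA 129 and 143 bases before it. RefSeq lists another start of Ctla2a, with the boxes 239 and 142 bases and TGANTCA 188 bases before it. Over all RefSeq symbols 17.1% of windows held CAGACA and 6.87% held TGANTCA, on either strand (13% and 4.05% of the tested genes that had a window). The longer Smad palindrome GTCTAGAC, held by 0.174% of windows, was in neither.

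Some genes known from Treg cells rose. Of 22 members of that list 16 had enough counts, of which 5 rose and 0 fell (31.2% called, beside 3.29% of all genes tested, median 0.14). Nt5e (chromosome 9, 88327197 to 88372092), the ectoenzyme CD73 that turns AMP into adenosine, was at 17.4, 11.0 and 11.2 CPM with TGF-β1 and at 1.75, 1.09 and 1.22 CPM in the controls, without overlap (3.27 ± 0.29 SE, adjusted p = 3.28e-05). Its partner Entpd1, or CD39, stood at 21.6 ± 3.94 against 12.3 ± 2.81 CPM (SD, n = 3) and did not pass (0.81 ± 0.22 SE, adjusted p = 0.0803). Foxp3 had 0, 3 and 0 counts with TGF-β1 and 0, 0 and 1 in the controls, too few to test.

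The transcription factor Ikzf4, or Eos, was at 79.3, 80.7 and 85.0 CPM against 28.7, 47.7 and 55.3 CPM (0.88 ± 0.17 SE, adjusted p = 0.0107), but did not pass when the 6 libraries were fitted alone. Gpr83, a receptor gene that lies beside Izumo1r on chromosome 9, and Capg, an actin capping protein, had log2 fold changes of 1.04 ± 0.20 and 0.76 ± 0.08 SE (adjusted p = 0.0127 and 0.000127), Gpr83 not without TGF-β1 replicate 1 or control replicate 2 or 3 (up to 0.0601). Il2ra, Ctla4, Tnfrsf18 and Tnfrsf4, which activated T cells share with Treg cells, had log2 fold changes between 0.05 and 0.07 and none passed. Ikzf2 and Nrp1, known from thymic Treg cells, had -0.99 and -1.05 and did not pass either (adjusted p = 0.115 and 0.134).

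**Figure D4:**
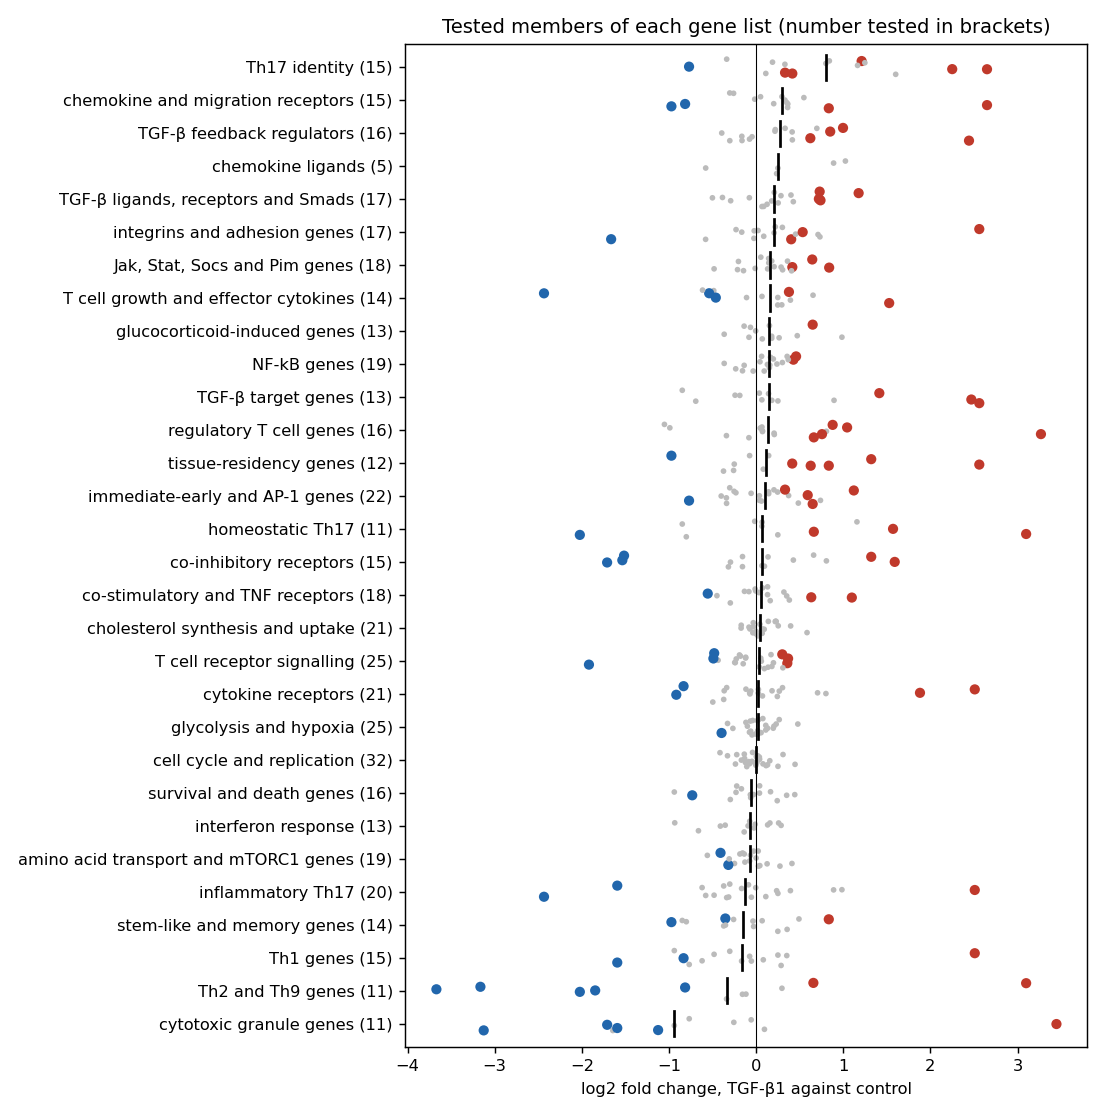
Log2 fold change, TGF-β1 against control (x axis), of every tested member of 30 gene lists (y axis, number tested in brackets), red where a member passed and was higher, blue where it passed and was lower, grey where it did not pass, with a black bar at the list's median. The median was highest for Th17 identity genes, at 0.80, and lowest for cytotoxic granule genes, at -0.94.

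Co-inhibitory receptors split. Of 19 members 15 had enough counts, of which 2 rose and 3 fell (33.3% called, beside 3.29% of all genes tested, median 0.07). Tigit, a receptor that competes with Cd226 for its ligands, was at 38.9, 40.8 and 35.4 CPM with TGF-β1 and at 104, 117 and 112 CPM in the controls (-1.54 ± 0.12 SE, adjusted p = 1.55e-05). The gp49 receptors Lilrb4a, at 57.8, 61.6 and 49.3 against 157, 161 and 164 CPM, and Lilr4b, at 43.4, 36.4 and 30.6 against 137, 131 and 93.0 CPM, fell by 1.52 ± 0.10 and 1.71 ± 0.16 SE on the log2 scale (adjusted p = 1.63e-06 and 4.65e-05). These 2 genes are near copies and overlap the predicted gene Gm49339, which also fell (-1.99 ± 0.24 SE), so the share of reads assigned to each is uncertain.

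Pdpn, or podoplanin, was at 17.4, 20.2 and 19.1 CPM against 8.05, 5.18 and 5.84 CPM (1.59 ± 0.23 SE, adjusted p = 0.00147) and rose along with Cd101. Pdcd1, Ctla4 and Lag3 had log2 fold changes of 0.10, 0.07 and -0.32 and did not pass. Havcr2, or Tim-3, had 0 counts in the TGF-β1 libraries and 4, 5 and 6 in the controls. The 95% counting interval of the ratio, TGF-β1 to control, reached up to 0.315, and the adjusted p without a low-count filter, 0.0921 in edgeR, did not pass.

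Among cytokines of T cell growth and effector function 14 of 21 had enough counts, 2 rose and 3 fell (median 0.16). The share called was 35.7%, beside 3.29% of all genes tested. Lta (chromosome 17, 35203165 to 35205351), which encodes lymphotoxin α, was at 676, 635 and 633 CPM with TGF-β1 and at 220, 234 and 220 CPM in the controls, the smallest adjusted p of the genes named here (1.53 ± 0.06 SE, adjusted p = 1.38e-08). Its partner Ltb was at 366, 393 and 365 against 288, 290 and 288 CPM (0.38 ± 0.06 SE, adjusted p = 0.00255). Tnf, which lies between these genes, stood at 64.7 ± 2.21 against 48.9 ± 11.4 CPM (SD, n = 3) and did not pass (0.39 ± 0.17 SE, adjusted p = 0.283). Tnfsf8, the ligand of CD30, and Lif fell by 0.54 ± 0.10 and 0.46 ± 0.08 SE on the log2 scale (adjusted p = 0.00786 and 0.00795). Ltb, Tnfsf8 and Lif did not pass on library totals alone.

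Il2 was at 89.2, 37.6 and 69.0 CPM with TGF-β1 and 78.4, 78.0 and 114 CPM in the controls, with overlap (adjusted p = 0.562). Of 26 cytokine receptor genes 21 had enough counts, 2 rose and 2 fell (19% called, beside 3.29% of all genes tested, median 0.02). Those called were Il18r1 and Il12rb2 above, Il1rn and Il10ra. Il1rn, the soluble antagonist of interleukin 1, was at 14.4, 14.7 and 16.6 CPM against 6.65, 3.27 and 2.92 CPM (1.88 ± 0.25 SE, adjusted p = 0.000746). Il10ra, the ligand-binding chain of the interleukin 10 receptor, was at 31.4, 27.5 and 30.9 against 60.9, 50.7 and 57.7 CPM (-0.92 ± 0.10 SE, adjusted p = 0.000307).

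Of 20 Jak, Stat, Socs and Pim genes 18 had enough counts, 3 rose and 0 fell (16.7% called, beside 3.29% of all genes tested, median 0.16). Besides Stat3 these were Socs3, the feedback inhibitor of Stat3 signalling, at 176, 193 and 181 against 102, 96.5 and 109 CPM (0.84 ± 0.10 SE, adjusted p = 0.000525), and Stat5a, at 267 ± 13.4 against 171 ± 15.6 CPM (SD, n = 3, 0.64 ± 0.11 SE, adjusted p = 0.00393). Stat5a and Stat3 are neighbours whose exons share 72 bases on opposite strands, and neither passed on library totals alone. In the co-stimulatory and TNF receptor list 18 of 19 had enough counts, 2 rose and 1 fell (16.7% called, median 0.06). Tnfrsf13b, the receptor TACI, was at 215, 172 and 191 against 78.7, 89.7 and 100 CPM (1.10 ± 0.10 SE, adjusted p = 5.64e-05). Tnfrsf1b, or TNF receptor 2, rose by 0.63 ± 0.13 SE on the log2 scale (adjusted p = 0.0177), though not without TGF-β1 replicate 1 or 3 or control replicate 3 (up to 0.0830), and Tnfrsf8, or CD30, fell by 0.56 ± 0.10 SE (adjusted p = 0.00832). On library totals alone neither Tnfrsf1b nor Tnfrsf8 passed.

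Of the integrin and adhesion genes 17 of 23 had enough counts, 3 rose and 1 fell (23.5% called, beside 3.29% of all genes tested, median 0.21). The fall was that of Itgb3, the β chain of the vitronectin receptor, from 8.75, 10.4 and 9.25 CPM to 2.27, 2.60 and 3.93 CPM (-1.66 ± 0.24 SE, adjusted p = 0.00135). Besides Itgae, the β2 integrin chain Itgb2 and the hyaluronan receptor Cd44 rose by 0.40 ± 0.06 and 0.53 ± 0.12 SE on the log2 scale (adjusted p = 0.00191 and 0.0270). Neither passed on library totals alone, and Cd44 did not when any 1 of the 6 libraries was left out (up to 0.105). Itgb7, the partner of Itgae, had a log2 fold change of -0.03. Among chemokine and migration receptors 15 of 23 had enough counts (26.7% called, median 0.30). Ccr6 and Ccr7 were among those that rose and Ccr8 among those that fell. EdgeR, DESeq2 and limma voom each called 0 of the 5 tested chemokine ligand genes. In edgeR 1 of the 5 had an unadjusted p below 0.05, as did 1547 of the 10332 genes tested.

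Activation genes changed in part. Of 23 immediate-early and AP-1 genes 22 had enough counts, 4 rose (Jun, Dusp1, Nr4a3 and Irf4) and 1 fell (Batf), with a median of 0.10. The share called was 22.7%, beside 3.29% of all genes tested. Jun, a core AP-1 subunit, was at 24.6, 22.5 and 22.1 CPM against 11.2, 10.6 and 9.98 CPM (1.12 ± 0.14 SE, adjusted p = 0.000682). Dusp1, a MAP kinase phosphatase, and Nr4a3, an orphan receptor induced by the T cell receptor, rose by 0.65 ± 0.15 and 0.59 ± 0.11 SE on the log2 scale (adjusted p = 0.0265 and 0.0109). Dusp1 did not pass without TGF-β1 replicate 1 or 3 or control replicate 1 or 3 (up to 0.112), Nr4a3 not without control replicate 2 or 3 (up to 0.0593), and neither on library totals alone. Fos, Junb and Nr4a1 had log2 fold changes of 0.37, 0.14 and 0.14 and did not pass.

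All 25 genes of T cell receptor signalling had enough counts, of which 3 rose and 3 fell (24% called, beside 3.29% of all genes tested, median 0.03). Apart from Trat1 these changes were small: Lat, Plcg1 and Cd6 rose by 0.30 to 0.37 and Lcp2 and Ptprc fell by 0.49 and 0.48 on the log2 scale. Ptprc, which encodes CD45, was the 1 of these 5 that also passed on library totals alone (adjusted p = 0.00302 with TMM). Plcg1 did not pass when any 1 of the 6 libraries was left out (up to 0.177), Lcp2 not without TGF-β1 replicate 1 or 2 or control replicate 1 or 3 (up to 0.0984), and Cd6 not without TGF-β1 replicate 1 or 3 or control replicate 1 (up to 0.0580). Of the 19 NF-kB genes, all with enough counts, Nfkb2 and Relb, the pair of the alternative pathway, rose by 0.46 ± 0.07 and 0.43 ± 0.11 SE (adjusted p = 0.00328 and 0.0469) and 0 fell (10.5% called, median 0.15). Neither passed on library totals alone, and Relb did not when any 1 library was left out (up to 0.170).

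Stem-like and memory genes had 14 of 16 members with enough counts, with Ccr7 among those that rose and Satb1 among those that fell (median -0.15). The share called was 21.4%, beside 3.29% of all genes tested. Tcf7, which encodes the factor TCF-1, was at 25.3, 29.2 and 30.0 CPM with TGF-β1 and 26.9, 28.1 and 25.8 CPM in the controls (adjusted p = 0.889). Satb1, a chromatin organiser, fell by 0.35 ± 0.08 SE (adjusted p = 0.0213), but not without TGF-β1 replicate 1 or 3 or control replicate 1 or 3 (up to 0.102) or on library totals alone.

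Of 32 tested cell cycle and replication genes edgeR called 0 (median -0.0041), DESeq2 1 and limma voom 0. In edgeR 4 of the 32 had an unadjusted p below 0.05, as did 1547 of the 10332 genes tested. Mki67 and Top2a had log2 fold changes of 0.02 and -0.04. Of 25 tested genes of glycolysis and hypoxia the glucose transporter gene Slc2a3 alone passed (-0.40 ± 0.05 SE, adjusted p = 0.000763, median 0.02). Of 19 tested amino acid and mTORC1 genes Psat1 and Phgdh, enzymes of serine synthesis, fell by 0.41 ± 0.09 and 0.32 ± 0.08 SE on the log2 scale (adjusted p = 0.0237 and 0.0477, median -0.07). The shares called in these 3 lists were 0, 4 and 10.5%, beside 3.29% of all genes tested. None of these 3 passed on library totals alone, Phgdh did not when any 1 of the 6 libraries was left out (up to 0.188), and of these 6 fits Psat1 passed only in that without control replicate 2 (up to 0.110).

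EdgeR, DESeq2 and limma voom each called 0 of 21 tested genes of cholesterol synthesis and uptake (median 0.04). Each also called 0 of 13 tested interferon response genes (median -0.07). In edgeR 4 of the 21 and 2 of the 13 had an unadjusted p below 0.05, as did 1547 of the 10332 genes tested. Of 13 tested genes induced by glucocorticoids Dusp1 alone rose (7.69% called, beside 3.29% of all genes tested, median 0.15). The glucocorticoid receptor gene Nr3c1 was at 4.16, 2.60 and 3.33 CPM with TGF-β1 and 4.55, 3.00 and 3.16 CPM in the controls (adjusted p = 0.954). Cyp11a1, the enzyme gene of the first step of steroid synthesis, was at 65.0, 62.7 and 57.2 CPM against 54.2, 54.0 and 46.0 CPM. The Cyp11a1 groups did not overlap, but the difference did not pass (0.26 ± 0.11 SE, adjusted p = 0.273).

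Whether Dex altered the response to TGF-β1 was asked by the interaction of both treatments in the same fit, which called 0 of 10332 genes in edgeR at an adjusted p below 0.05. At an unadjusted p below 0.05 it called 552 of the 10332, a threshold that a share of 0.05 would pass with no interaction at all. DESeq2 called 6 at an adjusted p below 0.05. Il9, at 35.3 ± 15.6 CPM in the controls and 301 ± 112 CPM with TGF-β1 (SD, n = 3), was at 3.60 ± 1.73 CPM with Dex and 170 ± 37.2 CPM with both, an interaction of 2.48 ± 0.73 SE on the log2 scale that did not pass in edgeR (adjusted p = 0.746). Nr4a3, an orphan nuclear receptor gene, had the lowest adjusted p of the interaction in edgeR, 0.0978, at 1.23 ± 0.17 SE, and was 1 of the 6 that DESeq2 called.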

How the data were processed

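Each library was made from the polyadenylated RNA of 2000 sorted cells by an adapted form of SMART-Seq2, per the labels' protocols, a method that keeps no strand. Values are counts per gene symbol as deposited, not normalized. RSEM 1.3.3 and the build mm10 are named in the submitters' processing notes, and other steps of the authors are not given in the sources used here. The counts are whole numbers, so any rounding of RSEM estimates happened before deposit. Columns were matched to libraries by label, and 0 were left over.

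The test was run in edgeR 4.0.16 (R 4.3.3): filterByExpr by group, TMM, a robust quasi-likelihood fit with a mean for each of the 4 in vitro groups (8 residual degrees of freedom), F tests of TGF-β1 against control and Benjamini-Hochberg adjustment over 10332 genes. SE is the log2 fold change divided by the root of F. The script was tested on simulated data. Ratios of summed counts carry exact 95% intervals, which cover counting error only. Gene positions came from GENCODE M21, which held 10238 of the tested symbols, and promoter windows from RefSeq (GRCm38.p6), which held 77 of 107 named genes. Since only 7896 of the 10332 tested genes had a window, motif shares of called and other genes were not tested against each other.

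Named genes were the 15 with the largest change per direction among called genes whose mean log2 CPM was at least 4 (predicted genes, clones, receptor segments and pseudogenes left out), up to 4 called members per list and direction, and a set of pathway and T cell genes whether called or not. Some named genes and list members are not reported here. The 36 lists and their members were chosen with earlier results of these data known. The alternatives were other scaling (RLE, upper quartile, none), no low-count filter, a mean count of at least 50, DESeq2 1.42.0, limma 3.58.1 voom with sample weights, a replicate block, the 6 libraries alone, 11 repeat-like predicted genes left out or their share as a covariate, and each library left out.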

Additional observations from a re-analysis of the deposited data

How the results depend on the processing

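In all 17 alternatives every gene of the 340 that was tested kept the sign of its change, and 0 of the 90 named calls reversed. Of the named genes that were not called, Tgfb1, Smad4, Ifng, Tbx21 and Nr3c1 changed sign in some alternatives. Against 340 calls, 199 higher, 141 lower and 119 of at least 2-fold, library totals as the only scale gave 177, 98 and 79, kept 60 of 90 named calls and moved the median of all genes by -0.03 (log2), and a mean count of at least 50 gave 49 changes of at least 2-fold over 5370 genes, a filter that leaves out low genes by construction. Leaving out 1 library gave 219 to 259 calls, 131 to 153 higher, 78 to 106 lower and 97 to 115 of at least 2-fold; the total moved by over 1.5 times without TGF-β1 replicate 1 (219), control replicate 1 (226) or control replicate 3 (219), and the higher genes without control replicate 2 (131). DESeq2 gave 302 calls, of which 261 were among the 340, limma voom 331, no filter 323 and the 6 libraries alone 248. Of 90 named calls 52 passed in every alternative that tested them and 64 in all 6 fits without 1 library. Some of the 52, among them Il5, Il13 and Nt5e, were tested in 16 of the 17, being below a mean count of 50. Named calls lost in DESeq2 were Tgfbr1, Smad3, Tgif1, Maf, Tnfrsf1b, Plcg1, Dusp1, Relb and Phgdh, and those lost without a low-count filter were Il17f, Ctla2b, Serpine2, Tgfbr1, Furin, Il12rb2, Plcg1, Relb and Phgdh. Among those lost with the 6 libraries alone were Tgfbr1, Furin, Smad3, Tgif1, Cd69, Ikzf4, Tnfrsf1b, Plcg1, Cd6, Dusp1, Relb, Psat1 and Phgdh. The cause was not tested. With a replicate block the fit called 362 genes, 203 higher, 159 lower and 123 of at least 2-fold, and lost Tgfbr1, Smad3 and Relb among named calls. Same-numbered libraries of the 2 groups correlated at 0.0406, 0.0699 and 0.0260 in their deviations from the group means. Each TGF-β1 library correlated best with the control of its own number. Replicate 2 was the lowest library of all 4 in vitro groups for Il9 and Il17f, and the highest for Il12rb2 and Tbx21. The labels state no pairs, so the main fit took none. Whether same-numbered libraries share a source was not tested, and these correlations over all genes cannot decide it. The interaction with Dex gave 2 genes with the block (Gm10337 and Il9) and 6 with DESeq2 (AC144852.1, Agrp, C1qtnf12, Ccl5, Nr4a3 and Rpl35). In edgeR without the block it gave 0, and 552 of 10332 genes had an unadjusted p below 0.05. Depth limits the lowest genes: 3 counts are 0.730 to 1.13 CPM.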

Other observations

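Among the genes that passed the test, 6 at or near 0 in one group are given here, chosen with their values known and not by the rule for named genes. Olfm2, an olfactomedin family gene, had 53, 43 and 51 counts in the TGF-β1 libraries and 0, 2 and 1 in the controls, a ratio of summed counts, adjusted for library size, of 55.4 with a 95% counting interval of 18.6 to 272 (edgeR adjusted p = 1.55e-05). Havcr1, or Tim-1, a receptor for phosphatidylserine on T cells, had 18, 15 and 12 counts against 1, 0 and 0, a ratio of 50.9 (8.67 to 2053, adjusted p = 0.00784). The laminin chain gene Lamc3 had 10, 19 and 15 counts against 0, 1 and 1 (adjusted p = 0.00432), Nipal1 had 9, 17 and 10 against 1, 0 and 1 (0.0203), and St5 had 11, 10 and 12 against 0, 1 and 1 (0.00619). The gene that went the other way was Mgl2, a C-type lectin best known from macrophages and dendritic cells, with 0, 1 and 0 counts with TGF-β1 and 3, 16 and 16 in the controls, which was 31.0 times as high in the controls (5.21 to 1258, adjusted p = 0.0491). The groups did not overlap for any of these genes.

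Ccl1, a chemokine that binds Ccr8, had 15 counts in TGF-β1 replicate 3 and 0 in the other 5 libraries. Ccl20, the ligand of Ccr6, had 0, 6 and 8 counts with TGF-β1 and 0, 2 and 0 in the controls. Ccr2, a receptor of inflammatory cells, had 3, 2 and 3 counts against 7, 10 and 14. All 3 genes were below the low-count filter and had adjusted p between 0.284 and 0.748 in edgeR without it.

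Other neighbouring tested genes that passed in the same direction were Ninj1, Card19 and Susd3 on chromosome 13 (49187485 to 49248706), all higher, and Prss46 and Prss50, testis-type serine protease genes on chromosome 9 (110844506 to 110864629), also higher. These runs were noticed after the values were seen, and how often neighbours move together was not tested.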
